A study of Macaca mulatta with 26 samples.

Results

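Glucocorticoid-responsive genes were described in the pineal gland, the retina and pools of other tissues of the rhesus macaque. The set held the glucocorticoid receptor NR3C1 and 9 genes that glucocorticoids are known to induce: FKBP5, TSC22D3, ZBTB16, KLF9, SGK1, ERRFI1, ANGPTL4, MT2A and CDKN1A. The genes were chosen by name, and all 10 were found among the 50308 genes of the deposited table of FPKM values, a unit that divides the reads of a gene by its length and by the size of the library, for the 26 libraries. Per the labels, the animals were 12 adult macaques, 3 to 33 years old and of both sexes, gathered over 11 years and kept in cycles of 12 h light and 12 h darkness that began at 6 h. No genotype or treatment was given beyond the ketamine anaesthesia that all animals received. Tissue was taken at dawn (5 to 7 h), mid-day (11 to 13 h), dusk (17 to 19 h) or midnight (23 to 1 h), from 3 animals per time, and animals of the dusk and midnight groups were anaesthetised under dim red light and blindfolded. RNA came from single pineal glands and from pieces of retina, with 3 libraries per tissue and time, and 2 control pools mixed RNA from 16 other tissues, 1 at mid-day and 1 at midnight.

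Cortisol is the main glucocorticoid of primates. In day-active primates its level in blood climbs before waking, peaks in the early morning and declines through the evening. The hormone enters cells and binds the receptor NR3C1, which is held ready by HSP90 chaperones, moves to the nucleus and changes transcription. One of the induced genes, FKBP5, encodes a co-chaperone that lowers the receptor's affinity for the hormone, so it closes a short negative feedback loop. Such genes are used as readouts of glucocorticoid action in many tissues, and the question put to the 4 times was how the members stood around the hours at which cortisol is usually highest. Cortisol itself was not among the measurements.

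The depth in reads counted on genes (in M, or mega-reads) was 11.7 to 16.1 M for the pineal gland, 16.9 to 21.4 M for the retina and 16.2 and 23.0 M for the pools. The pineal marker ASMT, the last enzyme of melatonin synthesis, was at 89.8 to 187 FPKM in pineal libraries and 0.439 to 8.52 in retina libraries. SAG, the arrestin of rod photoreceptors, was at 294 to 454 FPKM in retina libraries and 0.131 to 2.09 in pineal libraries, so the libraries matched their tissue labels. AANAT, of the melatonin pathway, was at 41.7 to 61.7 FPKM in pineal and 40.2 to 87.1 in retina libraries, against 0.0847 to 0.199 in the pools. Among the 12 retina libraries, dawn replicate 2 and mid-day replicate 1 stood apart, with 44.8% and 45.7% of all genes at 0 against 33.5% to 35.2% in the other 10. Values without both are given beside some of the retina results, not beside all that they touch. XIST was above EIF1AY in 7 of 12 pineal and 5 of 12 retina libraries, so libraries of both sexes were present in each tissue. They were not balanced over the times. XIST was above EIF1AY in every pineal mid-day and every retina dusk library and in no retina dawn library, and the other groups were mixed. Retina dusk against dawn thus compared female with male libraries, and other comparisons with these 3 groups were partly confounded with sex.

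The 10 genes spanned a wide range of levels, and the order differed between the tissues. In the pineal gland the highest mean was that of SGK1, at 27.2 ± 9.52 FPKM (SD, n = 12), which was higher than 89.5% of the 17687 genes with a mean of at least 1 FPKM. KLF9 at 21.8 ± 4.21 and NR3C1 at 18.6 ± 2.63 came next, and their ranges over the 12 libraries overlapped. FKBP5 at 14.7 ± 2.32, ERRFI1 at 13.9 ± 3.44, TSC22D3 at 12.6 ± 1.32 and MT2A at 9.34 ± 2.24 FPKM formed a middle group in which the ranges of neighbours overlapped. CDKN1A at 4.90 ± 2.15, ZBTB16 at 3.37 ± 1.04 and ANGPTL4 at 1.31 ± 0.679 FPKM were lowest. In the retina ERRFI1 led at 28.9 ± 4.50 FPKM (n = 12), followed by KLF9 at 15.3 ± 3.32, NR3C1 at 12.0 ± 1.56 and TSC22D3 at 11.2 ± 1.45. SGK1, first in the pineal gland, was at 3.08 ± 1.19 FPKM there.

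**Figure D1:**
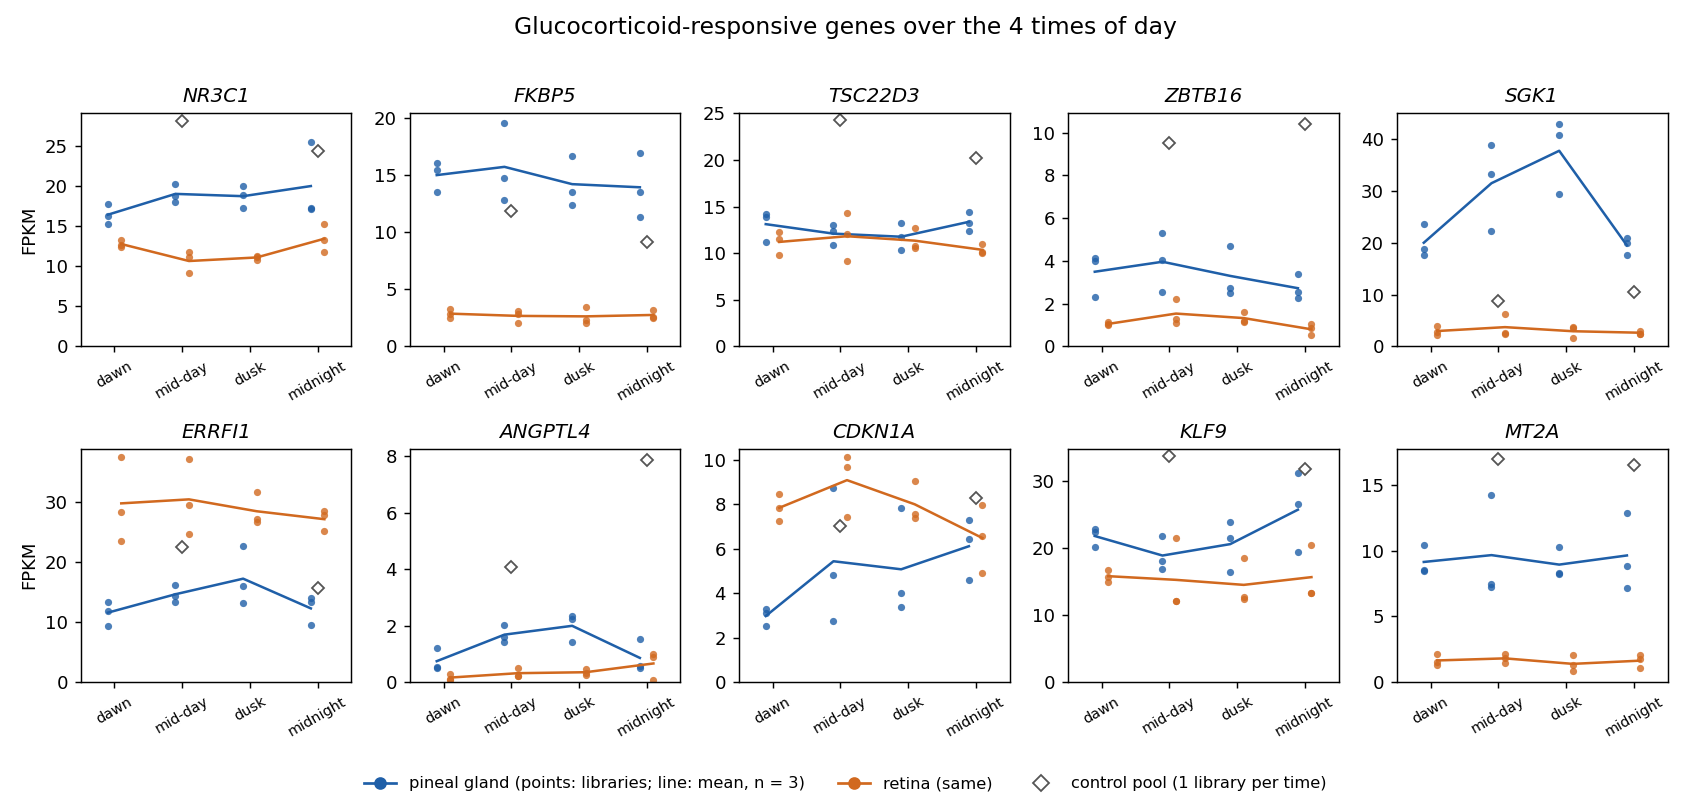
FPKM of each of the 10 genes in every library, plotted against dawn, mid-day, dusk and midnight, with pineal libraries in blue, retina libraries in orange, lines through the means of 3 libraries, and the 2 control pools as diamonds. The pineal SGK1 points stand highest at dusk, at 29.6 to 43.0 FPKM, while pineal FKBP5 points lie between 11.4 and 19.6 FPKM with overlapping ranges at all times.

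None of the 10 genes passed the test between any pair of times in the pineal gland. Differences were tested with limma on log2(FPKM + 0.5), with Benjamini-Hochberg adjustment over all 19110 pineal genes at a threshold of 0.05. Over the 6 pairs of times there were 0 calls in 60 tests of the members, where 0.123% of the tests of all genes were called, so a count of 0 is near what the whole table gives. An unadjusted p under 0.05 was reached in 11 of the 60 tests, against 11.2% of the tests over all genes. A fit with voom weights also gave 0 calls, while a fit with the replicate number as a block gave 2, both of SGK1. In single pairs the shares of all genes called were 0.0314% for mid-day minus dawn, 0.0209% for dusk minus mid-day, 0.0576% for midnight minus dusk, 0% for dawn minus midnight, 0.586% for dusk minus dawn and 0.0419% for midnight minus mid-day. The F test over the 4 times called 0 of 10 members, against 0.105% of all genes, with 2 members, against 14.5% of all genes, at an unadjusted p under 0.05.

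The receptor NR3C1 was close to level over the day in the pineal gland. Its 3 libraries were at 15.3, 16.2 and 17.8 FPKM at dawn, 18.1, 18.8 and 20.3 at mid-day, 17.3, 18.9 and 20.02 at dusk, and 17.2, 17.3 and 25.6 at midnight. The dawn libraries were all below the mid-day libraries, and every other pair of times overlapped. XIST was above EIF1AY in every mid-day library but in replicate 2 alone at dawn, so that pair was partly confounded with sex. Dawn minus the mean of the other 3 times was a log2 difference of -0.22 (95% interval -0.47 to 0.04, limma adjusted p = 0.389).

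FKBP5, the feedback co-chaperone, had 1 of the flatter pineal profiles of the set. Its libraries were at 13.5, 15.5 and 16.1 FPKM at dawn, 12.8, 14.8 and 19.6 at mid-day, 12.4, 13.6 and 16.7 at dusk, and 11.4, 13.5 and 16.98 at midnight. The ranges of all 4 times overlapped, and the highest time mean was 1.13 times the lowest. Dawn minus the other times was 0.05 on the log2 scale (95% interval -0.28 to 0.38, limma adjusted p = 0.893).

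TSC22D3, ZBTB16 and KLF9 showed no separated times in the pineal gland. TSC22D3, also called GILZ, encodes a leucine zipper protein that restrains inflammatory transcription factors, and its pineal libraries were at 11.2 to 14.2 FPKM at dawn, 10.9 to 12.998 at mid-day, 10.4 to 13.2 at dusk and 12.4 to 14.4 at midnight. ZBTB16, a zinc-finger transcription factor, was at 2.33, 4.01 and 4.15 FPKM at dawn, 2.53, 4.03 and 5.33 at mid-day, 2.49, 2.73 and 4.69 at dusk, and 2.24, 2.54 and 3.39 at midnight. KLF9, a Krüppel-like transcription factor, was at 20.2 to 22.8 FPKM at dawn, 16.9 to 21.8 at mid-day, 16.4 to 23.97 at dusk and 19.4 to 31.3 at midnight. For all 3 genes the libraries of every pair of times overlapped. Their log2 differences of dawn from the other times were 0.08 (95% interval -0.15 to 0.30) for TSC22D3, 0.08 (-0.47 to 0.62) for ZBTB16 and 0.03 (-0.30 to 0.36) for KLF9.

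SGK1 had separated libraries in 3 of the 6 pairs of times in the pineal gland, the most of the set there. It encodes a kinase that raises the number of sodium channels and transporters in the membrane and is induced by mineralocorticoids and growth factors as well as glucocorticoids. In replicate order its libraries were at 23.6, 18.9 and 17.7 FPKM at dawn, 33.3, 39.0 and 22.4 at mid-day, 43.0, 40.8 and 29.6 at dusk, and 21.0, 19.9 and 17.6 at midnight. The dusk libraries were all above the dawn and midnight libraries, and the mid-day libraries were all above the midnight libraries. The mid-day and dawn ranges overlapped through mid-day replicate 3.

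Dusk minus dawn was a log2 difference of 0.89 ± 0.21 for SGK1 (SE; 95% interval 0.44 to 1.35; limma adjusted p = 0.0813), and midnight minus dusk was -0.92 ± 0.21 (limma adjusted p = 0.121). Neither passed over all genes. Both passed without pineal mid-day replicate 3, at limma adjusted p = 0.0271 and 0.0281, and so did the F test over times, which had an adjusted p of 0.138 with all libraries and 0.0261 without that one. Over the 19 alternatives tried, the difference of dusk from dawn ranged from 0.79 to 1.06 with adjusted p from 0.0271 to 0.253. In bulk tissue, fewer cells of a type and less RNA per cell cannot be told apart. The summed level of 7 of 7 photoreceptor markers moved the same way, at 91.5 to 137.5 FPKM in dusk pineal libraries, 45.2 to 88.0 at dawn and 40.8 to 82.8 at midnight. The 5 of 5 oligodendrocyte markers summed to 61.9 to 119.7 FPKM at dusk and 33.2 to 61.4 at midnight, with dawn at 35.1 to 329.8. No gene of either list was at 0 in all pineal libraries: the cone arrestin ARR3, at 7.79 to 121 FPKM, was the most abundant photoreceptor marker, while PDE6A was at 0.0108 to 0.216. Their part in the SGK1 difference was not tested.

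ERRFI1 encodes a feedback inhibitor of the epidermal growth factor receptor. Its pineal libraries were at 9.38, 11.9 and 13.3 FPKM at dawn, 13.3, 14.3 and 16.2 at mid-day, 13.1, 15.9 and 22.6 at dusk, and 9.49, 13.3 and 14.0 at midnight. Means of 11.5 at dawn and 17.2 FPKM at dusk gave a log2 difference of 0.54 ± 0.21 (SE; limma adjusted p = 0.233), and the libraries of those times overlapped.

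ANGPTL4 encodes a secreted inhibitor of lipoprotein lipase that fasting, hypoxia and PPAR receptors also induce. In replicate order its pineal libraries were at 0.492, 0.519 and 1.20 FPKM at dawn, 1.41, 2.03 and 1.59 at mid-day, 2.33, 2.22 and 1.42 at dusk, and 0.480, 1.51 and 0.565 at midnight. Those values rest on 13 to 73 reads per library. The dawn libraries were all below the mid-day and dusk libraries, and midnight spanned both levels. Dusk minus dawn was 1.03 ± 0.33 on the log2 scale (SE; limma adjusted p = 0.156).

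CDKN1A encodes the cell cycle inhibitor p21 and is also a main target of p53. Its pineal libraries were at 3.10, 2.54 and 3.28 FPKM at dawn, 2.75, 8.74 and 4.83 at mid-day, 7.82, 4.03 and 3.38 at dusk, and 7.32, 6.46 and 4.57 at midnight. The dawn libraries were all below those of dusk and of midnight. Dawn minus midnight was -0.91 ± 0.37 (SE; limma adjusted p = 0.496). The summed level of 6 of 6 blood markers also differed without overlap between these times, at 2.36 to 17.9 FPKM at dawn and 26.8 to 44.9 at midnight. HBB made up most of it, HBA1 was listed at 0 in all pineal libraries, and the part of blood in the CDKN1A values was not tested.

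MT2A encodes a metallothionein, a small protein that binds zinc and copper, and it has near-identical relatives among which reads can be divided, so its level is uncertain. Its pineal libraries were at 8.44 to 10.4 FPKM at dawn, 7.23 to 14.3 at mid-day, 8.25 to 10.3 at dusk and 7.18 to 12.9 at midnight, on 114 to 227 reads. No pair of times was separated, and dawn differed from the other times by -0.01 on the log2 scale (95% interval -0.48 to 0.46).

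Set against the morning cortisol peak, no member was highest at dawn in the pineal gland. The highest of the 4 time means was at mid-day for 3 members, at dusk for 3 and at midnight for 4, and dawn was lowest for NR3C1, ERRFI1, ANGPTL4 and CDKN1A. In the test of dawn against the mean of the 3 other times, 0 of 10 members passed limma, against 0.0105% of all genes, and 3 had an unadjusted p under 0.05, against 15.7% of all genes. Those 3 were lower at dawn: SGK1 by -0.49 (95% interval -0.87 to -0.12), ANGPTL4 by -0.66 (-1.25 to -0.07) and CDKN1A by -0.72 (-1.40 to -0.05), with limma adjusted p of 0.216, 0.277 and 0.292. The 10 differences ran from -0.72 to 0.08, with 4 above 0 and 6 below, a median of -0.11 beside -0.04 over all genes. Across the 10 genes the highest upper limit of a dawn level was 1.54 times the other times, reached by ZBTB16. Dawn and mid-day together minus dusk and midnight also gave 0 of 10 calls, against 0.0157% of all genes, with differences from -0.44 to 0.26 and a highest upper limit of 1.66 times.

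**Figure D2:**
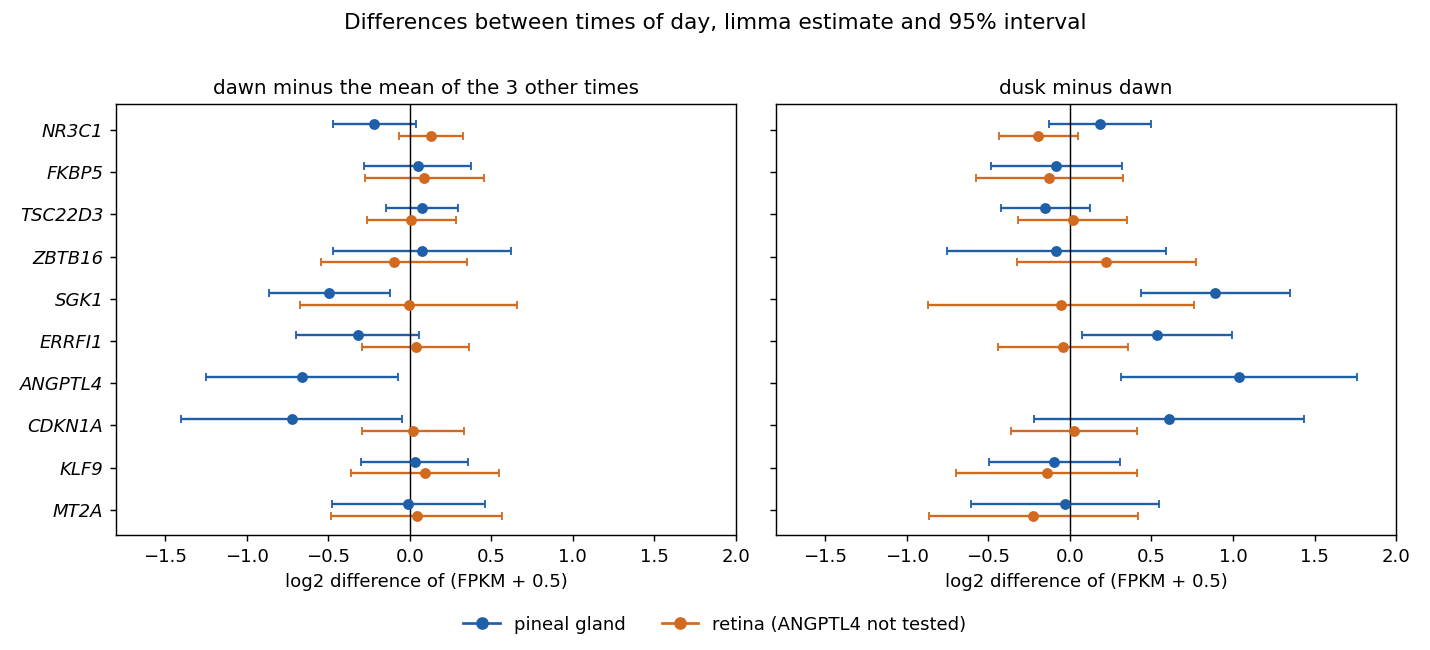
Limma log2 differences with 95% intervals for each gene, in the pineal gland (blue) and the retina (orange): dawn minus the mean of the 3 other times on the left, dusk minus dawn on the right. In the left panel the pineal intervals of SGK1, ANGPTL4 and CDKN1A lie below 0 before adjustment, and in the right panel those of SGK1, ANGPTL4 and ERRFI1 lie above 0; ANGPTL4 was too low to be tested in the retina.

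Separation without overlap between the 3 libraries of 2 times was found in 8 of 60 pairs of the pineal members. By pair of times it was 3 of 10 members for dusk against dawn (24.6% of all genes), 2 of 10 for mid-day against dawn (16.1%), and 1 of 10 each for midnight against dawn (16.8%), midnight against mid-day (13.4%) and midnight against dusk (22.1%). It was 0 of 10 for dusk against mid-day (8.29%). Read against these shares of the whole table, the members' counts are no result about them.

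The authors' deposited tables hold DESeq2 comparisons of the same pairs of times. In the authors' deposited table, 3 of the 60 pineal tests of members had an adjusted p under 0.05, against 2.56% of the tests over all genes. The authors' deposited table gave SGK1 a log2 change of -0.83 (SE 0.16, adjusted p = 1.77e-05) from dusk to midnight, a pair in which it called 5.04% of all genes. From dawn to dusk the authors' deposited table gave SGK1 0.78 (SE 0.19, adjusted p = 0.00139), with 6.15% of all genes called. CDKN1A was the third, at -0.87 for dawn against midnight in the authors' deposited table (SE 0.22, adjusted p = 0.0139), with 1.41% of all genes called. In the authors' deposited table the other 3 pineal pairs had 0 of 10 members under 0.05, where 1.53% (mid-day and dawn), 0.126% (dusk and mid-day) and 1.01% (mid-day and midnight) of all genes were called. For FKBP5, TSC22D3, ZBTB16, KLF9 and MT2A no pineal pair was under 0.05 in the authors' deposited table.

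In the retina, too, no member passed a test between times. None passed limma over the 21890 retina genes in any pair, with 0 calls in 54 tests against 0.00457% of the tests over all genes, and 0 with voom weights. An unadjusted p under 0.05 was reached in 5 of 54 tests, against 8.1% over all genes. Of the 6 pairs, midnight minus dusk had 0.0274% of all genes called, and in the other 5 pairs, in the F test and in the test of dawn against the other times 0% was called. The F test had 1 of 9 members at an unadjusted p under 0.05 (10.2% of all genes), and the test of dawn had 0 of 9 (7.14%). ANGPTL4, with 2 to 39 reads per retina library and 0.0579 to 1.01 FPKM, was under the level needed for the test.

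FKBP5 was at 2.51, 2.82 and 3.30 FPKM in dawn retina libraries, 2.10, 2.82 and 3.12 at mid-day, 2.10, 2.32 and 3.49 at dusk, and 2.51, 2.62 and 3.16 at midnight. Its 4 ranges overlapped, and the highest time mean, that of dawn, was 1.09 times the lowest. Dawn minus the other times was 0.09 on the log2 scale (95% interval -0.28 to 0.45). Over the 9 members tested these dawn differences ran from -0.10 to 0.13, with 7 above 0, 2 below and a median of 0.04 beside -0.06 over all genes. Without the libraries that stood apart they ran from -0.08 to 0.14, with 6 above 0 and 3 below. With all libraries the highest upper limit of a dawn level was 1.58 times the other times, that of SGK1.

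By time means, 6 of the 10 members were highest at mid-day in the retina, FKBP5 and KLF9 at dawn, and 2 at midnight, and midnight was lowest for 5. Dawn and mid-day together minus dusk and midnight gave 0 of 9 calls by limma, against 0% of all genes. Of these differences 8 were above 0 and 1 below, with a median of 0.09 beside -0.03 over all genes. Without the libraries that stood apart 5 were above 0 and 4 below.

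NR3C1 and ZBTB16 had the retina profiles with the least overlap. NR3C1 was at 12.4, 12.6 and 13.4 FPKM at dawn, 9.16, 11.1 and 11.7 at mid-day, 10.9, 11.2 and 11.3 at dusk, and 11.7, 13.3 and 15.4 at midnight. Its dawn and midnight libraries were all above its mid-day and dusk libraries. Midnight minus mid-day was 0.32 ± 0.11 (SE; limma adjusted p = 0.301), and without the libraries that stood apart 0.22 (adjusted p = 0.488). Midnight minus dusk was 0.26 (limma adjusted p = 0.425 with and 0.278 without those libraries). In the authors' deposited table NR3C1 was lower at dusk than at dawn, at -0.23 (SE 0.07, adjusted p = 0.0336), the only 1 of 50 retina tests of members under 0.05 there (1.74% of the tests over all genes), in a pair where 4.05% of all genes were called. In this pair XIST was above EIF1AY in every dusk library and in no dawn library, so time and sex cannot be told apart in it. In the other 5 retina pairs of the authors' deposited table the shares of all genes called were 0.851% (mid-day and dawn), 0.0809% (dusk and mid-day), 2.54% (midnight and dusk), 0.366% (dawn and midnight) and 2.44% (midnight and mid-day).

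ZBTB16 was at 0.984, 1.06 and 1.13 FPKM in dawn retina libraries, 1.09, 1.28 and 2.24 at mid-day, 1.15, 1.21 and 1.62 at dusk, and 0.523, 0.842 and 1.04 at midnight. The midnight libraries were all below the mid-day and dusk libraries, so its order was the opposite of that of the receptor gene at midnight. Midnight minus mid-day was -0.63 (limma adjusted p = 0.373), and -0.39 (adjusted p = 0.549) without the libraries that stood apart. Sums of markers of other cells also differed at midnight. Of the 6 endothelial markers 5 were in the table and summed to 77.4 to 92.1 FPKM at midnight, against 92.8 to 113.6 at the other times. The 5 of 5 pigment epithelium markers summed to 60.9 to 124.1 at midnight, 19.2 to 50.3 at mid-day and 6.64 to 58.5 at dusk. Their dawn range, 25.3 to 95.3, overlapped that of midnight. KDR, at 60.7 to 91.4 FPKM over the retina libraries, was most of the first sum, while CDH5 was at 0.381 to 0.871 and VWF at 0.806 to 2.61. RPE65 and TYRP1 were the most abundant of the second list, while TYR was at 0 to 0.395 FPKM. The part of these cells in the NR3C1 and ZBTB16 values was not tested. Both genes also differed with sex over the retina libraries. Where XIST was above EIF1AY, NR3C1 was at 9.16 to 11.7 and ZBTB16 at 1.04 to 2.24 FPKM. In the other libraries they were at 11.1 to 15.4 and 0.523 to 1.28. Sex was not balanced over the times, so the 2 profiles were partly confounded with it.

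Separation without overlap was found in 7 of 54 retina pairs, with 11.9% of all genes for mid-day against dawn, 19.2% for dusk against dawn, 11.5% for midnight against dawn, 9.36% for dusk against mid-day, 17.9% for midnight against mid-day and 21.7% for midnight against dusk. Of the 7, 4 were of NR3C1 and 3 of ZBTB16. For the other genes every pair of times overlapped. SGK1 had overlapping times in the retina, with 2.71, 3.93 and 2.31 FPKM at dawn, 6.23, 2.40 and 2.57 at mid-day, 3.72, 1.62 and 3.49 at dusk, and 3.08, 2.41 and 2.47 at midnight. Its highest value was that of mid-day replicate 1, a library that stood apart. Retinal SGK1 was highest at mid-day by time means, with dusk minus dawn at -0.05 on the log2 scale, while without both libraries that stood apart dusk was highest and dusk minus dawn was 0.13 (limma adjusted p = 0.871). Mid-day replicate 1 was also the highest of 12 for TSC22D3 (14.3 FPKM), ZBTB16 (2.24), CDKN1A (10.1) and KLF9 (21.6) and the lowest for NR3C1 (9.16).

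The remaining retina genes overlapped at all times. ERRFI1 was at 23.4 to 37.4 FPKM at dawn, 24.6 to 37.2 at mid-day, 26.6 to 31.6 at dusk and 25.1 to 28.5 at midnight. CDKN1A was at 7.24 to 8.47 at dawn, 7.44 to 10.1 at mid-day, 7.37 to 9.06 at dusk and 4.89 to 7.98 FPKM at midnight, with midnight minus mid-day at -0.47 (limma adjusted p = 0.345), and at -0.39 (adjusted p = 0.491) without the libraries that stood apart, since mid-day replicate 1 was its highest library. TSC22D3 lay between 9.12 and 14.3, KLF9 between 12.1 and 21.6 and MT2A between 0.804 and 2.13 FPKM over the 12 libraries, the last on 20 to 58 reads.

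Whether the 4-time profile differed between the tissues was tested as the interaction of tissue and time in the 24 libraries. By limma 0 of 10 members passed, against 0.218% of all 24740 genes, with 0 at an unadjusted p under 0.05 (9.4% of all genes). The adjusted p was 0.706 for SGK1 and 0.607 for NR3C1. Without the 2 retina libraries that stood apart the limma adjusted p was 0.478 for SGK1 (unadjusted 0.0529) and 0.672 for NR3C1. A difference between the tissues in the SGK1 profile, highest at dusk in the pineal gland and overlapping at all times in the retina, was thus not shown beyond the spread between libraries.

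All 10 genes differed between pineal gland and retina when the 4 times were averaged, 8 higher in the pineal gland and 2 higher in the retina. This has to be read against the 83% of all 24740 genes that limma called between these tissues. The median of the members was 0.82 on the log2 scale, beside -0.18 over all genes, and centring each library on its median moved the latter to 0.02. In 5 of the 10 genes the 12 libraries of one tissue did not overlap those of the other, against 30.8% of all genes. These were FKBP5, ZBTB16, SGK1 and MT2A, higher in the pineal gland, and ERRFI1, higher in the retina.

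SGK1 was the most different, at 17.6 to 43.0 FPKM in pineal and 1.62 to 6.23 in retina libraries, a log2 difference of 2.94 or 7.68-fold (95% interval 2.63 to 3.26; limma adjusted p = 1.14e-12). FKBP5 was at 11.4 to 19.6 FPKM in pineal and 2.10 to 3.49 in retina libraries, 4.70-fold higher in the pineal gland (log2 2.23, 95% interval 2.03 to 2.43, limma adjusted p = 7.26e-14). The receptor itself differed less, by 1.52-fold (NR3C1 log2 0.61, 95% interval 0.47 to 0.74, limma adjusted p = 5.27e-08). MT2A was 4.67-fold higher in the pineal gland on the log2(FPKM + 0.5) scale (log2 2.22), ZBTB16 2.29-fold (1.20), KLF9 1.41-fold (0.50) and ANGPTL4 2.05-fold (1.03). The ANGPTL4 value depends on the pseudocount, since the gene was at 1.31 FPKM in the pineal gland and 0.368 in the retina: the log2 difference was 1.67 with a pseudocount of 0.1, 0.73 with 1 and 1.96 with voom.

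ERRFI1 and CDKN1A were the 2 members with higher levels in the retina. ERRFI1 was at 9.38 to 22.6 FPKM in pineal and 23.4 to 37.4 in retina libraries, a log2 difference of -1.05 (95% interval -1.26 to -0.84, limma adjusted p = 1.32e-08). CDKN1A differed by -0.71 (95% interval -1.03 to -0.39, limma adjusted p = 0.000265), with overlapping libraries. TSC22D3 was nearly equal, at 12.6 ± 1.32 and 11.2 ± 1.45 FPKM (SD, n = 12 each), and its difference of 0.17 (95% interval 0.02 to 0.31, limma adjusted p = 0.0312) was not called in 11 of the alternatives, among them voom (0.13, adjusted p = 0.102). Without the 2 retina libraries that stood apart all 10 genes were still called, with SGK1 at 3.09 and TSC22D3 at 0.22.

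The cells in the samples differed as well. The 7 of 7 microglia and macrophage markers summed to 81.3 to 168 FPKM in pineal and 3.93 to 12.5 in retina libraries, and the 8 of 8 fibroblast and mural markers to 98.1 to 237 and 23.7 to 42.1. Astrocyte markers (4 of 4) summed to 224 to 692 FPKM in pineal and 49.97 to 83.0 in retina libraries, while Muller glia markers (4 of 4) summed to 129 to 195 and 371 to 522. The part of these cells in the member differences was not tested.

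**Figure D3:**
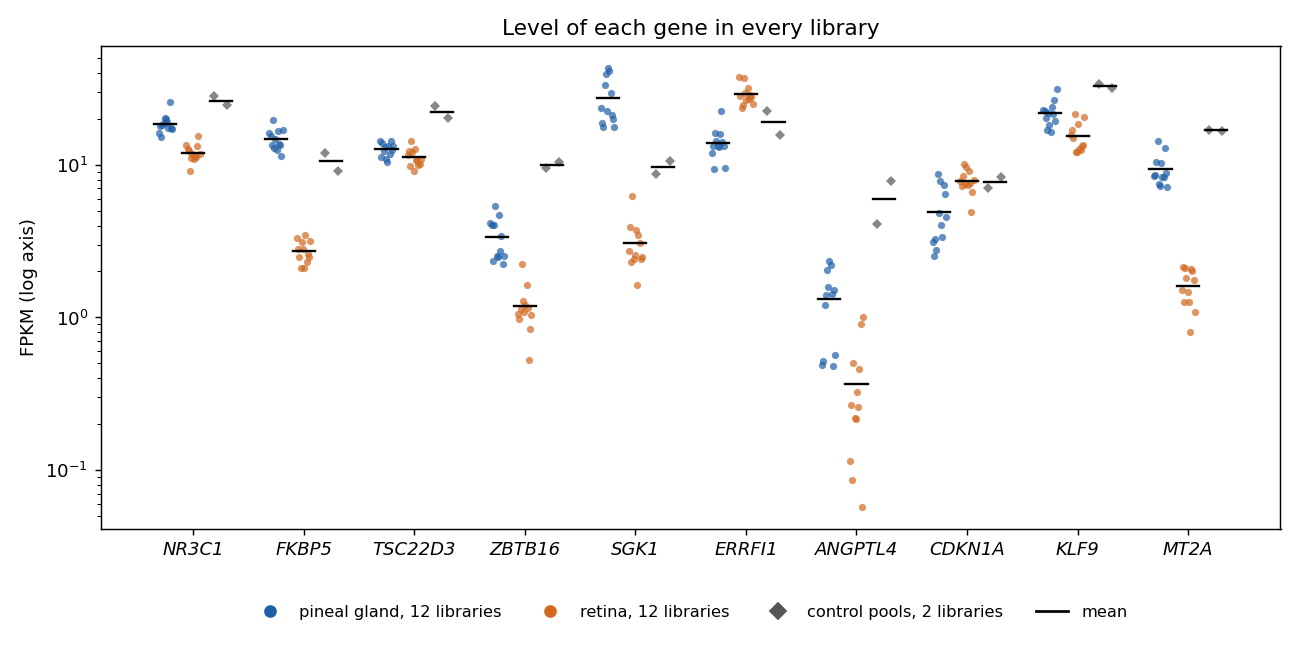
FPKM on a log axis for each of the 10 genes in every pineal, retina and control pool library, with a black bar at the mean of each group. SGK1, FKBP5, ZBTB16 and MT2A have pineal points wholly above the retina points, and ERRFI1 has the reverse. NR3C1, TSC22D3, KLF9, ANGPTL4, ZBTB16 and MT2A have their highest means in the pools.

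Against the control pools, most members were lower in both tissues. In the pineal gland 8 of 10 were called by limma, 2 higher and 6 lower, against 51.1% of all 19908 genes, and the median was -0.65 beside -0.0029 over all genes. SGK1, at 8.73 and 10.6 FPKM in the pools, was higher in the pineal gland by 1.38 on the log2 scale (95% interval 0.97 to 1.79, limma adjusted p = 0.0001). FKBP5, at 11.9 and 9.13 FPKM in the pools, was higher by 0.46 (adjusted p = 0.0405), a call lost without the midnight pool (0.28, limma adjusted p = 0.372) and in 9 alternatives in all. The lower members were ANGPTL4 at -1.87, ZBTB16 at -1.48, MT2A at -0.84, TSC22D3 at -0.80, KLF9 at -0.60 and NR3C1 at -0.50. With either pool left out 5 of 10 were called: KLF9 and MT2A were lost in both cases, NR3C1 without the mid-day pool and FKBP5 without the midnight pool. ERRFI1 (-0.45, limma adjusted p = 0.0828) and CDKN1A (-0.69, adjusted p = 0.105) did not pass.

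In the retina 9 of 10 were called against the pools, 1 higher and 8 lower, against 59.9% of all 22560 genes, with a median of -1.33 beside 0.21 over all genes. MT2A, at 16.97 and 16.6 FPKM in the pools, was lower by -3.06 (limma adjusted p = 1.67e-06), ANGPTL4 by -2.91, ZBTB16 by -2.68, FKBP5 by -1.77 and SGK1 by -1.56. NR3C1 and KLF9 were each lower, at -1.11 and -1.10, and TSC22D3 at -0.96. ERRFI1 was higher by 0.60 (adjusted p = 0.0165), and its call was lost without the midnight pool (0.34, limma adjusted p = 0.243). CDKN1A was not separated from the pools, with a difference of 0.02 (95% interval -0.33 to 0.37). Without the retina libraries that stood apart 9 of 10 were called too, with differences from -3.13 for MT2A to 0.64 for ERRFI1. Both tissues were compared with the same 2 pools, which have no replicates per time.

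The other genes of the pathway were taken from lists of the receptor with its chaperones, enzymes and co-regulators (20 genes) and of further glucocorticoid-induced genes (40). In the pineal gland 18 and 32 of these passed the filter, in the retina 19 and 30, and 0 of each passed limma in any comparison of times. For dawn against the other pineal times 4 of 18 and 5 of 32 had an unadjusted p under 0.05, beside 15.7% of all genes. For dawn in the retina it was 5 of 19 and 0 of 30, beside 7.14%, and for the retina F test 7 of 19 and 4 of 30, beside 10.2%. In the second list the smallest p-value for pineal dawn belonged to monoamine oxidase A, MAOA, at -0.50 (limma adjusted p = 0.227). From dawn to dusk in the pineal gland the clock gene PER1, which the receptor also induces, differed by -0.79 (limma adjusted p = 0.120) while SGK1 differed by 0.89. Neither passed, and their signs were opposite. In the retina the smallest p-values for dawn belonged to chaperones of the receptor: HSPA8 was at -0.61 against the other times (limma adjusted p = 0.444) and HSP90AA1 at -0.33 (adjusted p = 0.521).

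Genes that share a second regulator with a member were counted too. For dusk minus dawn in the pineal gland, 0 of 14 PPAR and hypoxia targets, which include ANGPTL4, passed limma, with 10 above 0, 4 below and a median of 0.18 beside 0.08 over all genes. Among the 13 immediate early genes tested, which include SGK1 and ERRFI1, 4 were above 0 and 9 below, with a median of -0.39 and 0 calls. Of 14 p53 targets, which include CDKN1A, 0 were called, with 8 above 0 and a median of 0.04. Of 7 metallothioneins, 0 were called, with a median of -0.01.

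Between tissues, 16 of 20 receptor genes were called, 8 in each direction, among them the drug and steroid exporter ABCB1 (1.82) higher in the pineal gland and the cortisol-inactivating enzyme HSD11B2 (-1.27) higher in the retina. Of 35 further glucocorticoid-induced genes tested, 27 were called, 17 higher in the pineal gland, with TXNIP (3.00), FAM107A (2.48) and SLC7A11 (2.42) at the top. Both shares are close to the 83% of all genes. Against the pools, the further glucocorticoid-induced genes were called lower in 13 and higher in 4 of 33 for the pineal gland and lower in 18 and higher in 4 of 34 for the retina, where 51.1% and 59.9% of all genes were called. All 4 metallothioneins called in the pineal gland and all 5 called in the retina were lower than in the pools, of 7 tested in each.

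Over the 12 libraries of a tissue, each from its own animal per the labels, no pair of members passed a test of correlation by Pearson's r. Of 45 pairs per tissue, 0 were correlated in the pineal gland and 0 in the retina by a permutation test of Pearson's r with 100000 resamples, adjusted over all 90 pairs. In the pineal gland r ran from -0.66 to 0.74 with a median of 0.08, with 25 pairs above 0 and 20 below. The highest was SGK1 with ANGPTL4, at r = 0.74 (permutation p = 0.00839, adjusted p = 0.189) and Spearman's rho = 0.67 (permutation p = 0.02), and r was 0.58 without the 2 libraries farthest from the median of SGK1. The lowest was FKBP5 with CDKN1A, at r = -0.66 (permutation p = 0.0194, adjusted p = 0.216), rho -0.69, and -0.58 without the 2 farthest.

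In the retina r ran from -0.80 to 0.84 with 23 pairs above 0 and 22 below. ZBTB16 and CDKN1A had r = 0.84 (permutation p = 0.00163, adjusted p = 0.147) and rho = 0.64, and r was 0.53 without the 2 farthest libraries. NR3C1 and ZBTB16 had r = -0.80 (permutation p = 0.00452, adjusted p = 0.189), and this pair alone passed by Spearman's rho, at -0.87 (permutation adjusted p = 0.0450). That call was lost without the libraries that stood apart, at rho = -0.81 (permutation adjusted p = 0.45 over n = 10 libraries). By r the pair was at -0.68 without the 2 farthest libraries. In the retina libraries with XIST above EIF1AY, NR3C1 was at 9.16 to 11.7 FPKM, against 11.1 to 15.4 in the others. ZBTB16 went the other way, at 1.04 to 2.24 against 0.523 to 1.28, and sex was not removed from the correlations. An unadjusted permutation p under 0.05 was reached by 5 of 45 pairs in the pineal gland and 11 of 45 in the retina, and by 2 of 45 in the retina without the libraries that stood apart.

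**Figure D4:**
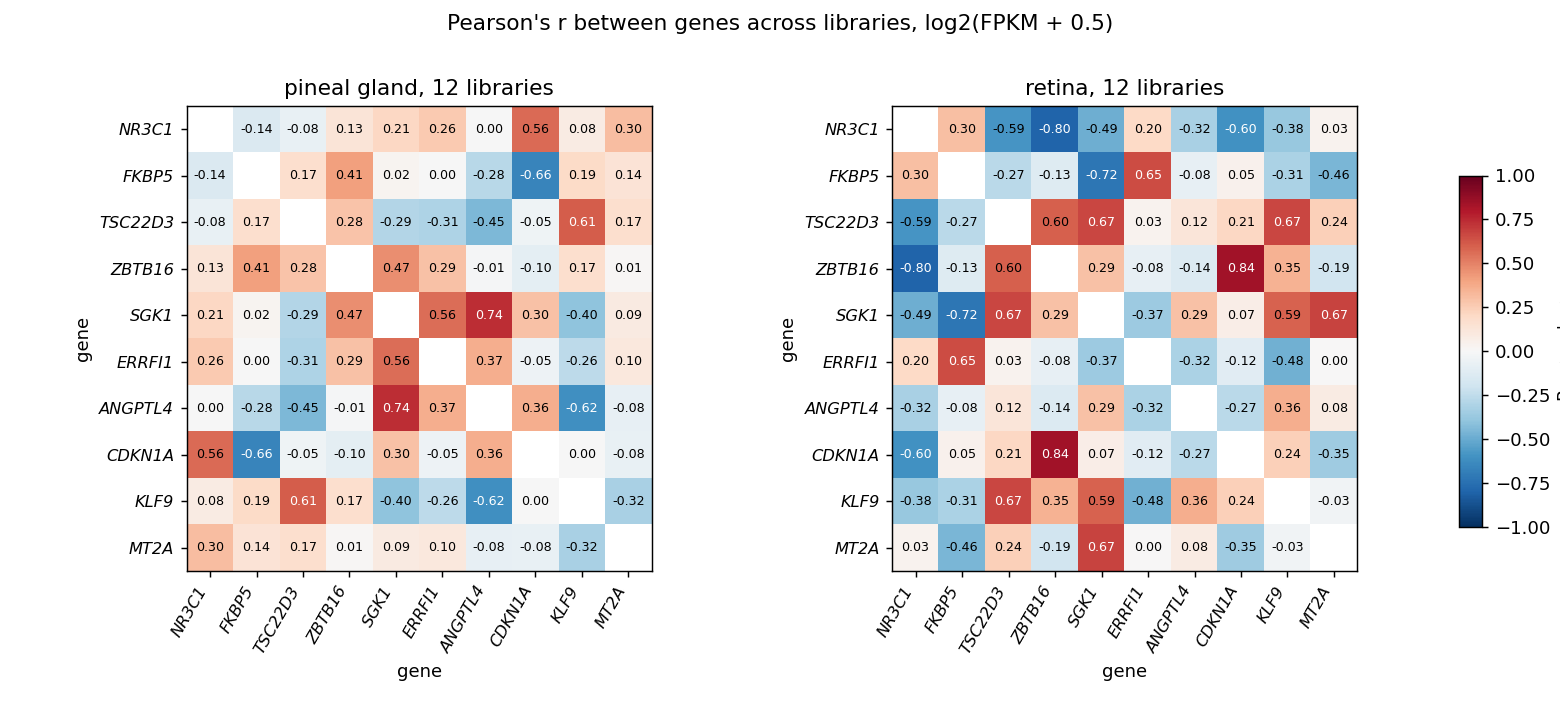
Pearson's r between the genes over the 12 pineal libraries (left) and the 12 retina libraries (right), on log2(FPKM + 0.5), from blue at -1 to red at 1. The pineal grid has its highest value at SGK1 with ANGPTL4 (0.74), and the retina grid at ZBTB16 with CDKN1A (0.84), with no block of uniformly high values in either.

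FKBP5 served as a reference for likeness. The genes whose levels over the 12 pineal libraries were most like it among 19109 others were ZNF700 (r = 0.88), RAB2B (0.85), ENPP4 (0.83), DMXL1 (0.81) and RPS12P10 (0.77). In the retina they were SMOC1 (0.87), ELMSAN1 (0.85), ANKRD17 (0.82), TNFSF10 (0.81) and TXNIP (0.81) among 21889. These are descriptions of the highest values out of many. Of the other members, the nearest to FKBP5 in the pineal gland was ZBTB16 (r = 0.41, rank 1071) and the farthest CDKN1A (r = -0.66, rank 18827), and in the retina the nearest was ERRFI1 (0.65, rank 157) and the farthest SGK1 (-0.72, rank 21871).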

How the data were processed

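RNA sequencing covered 12 pineal, 12 retina and 2 control pool libraries. The authors deposited FPKM values per gene and tables of their own comparisons, with log2 fold changes, standard errors and p-values per the file headers. The human build hg19 was used with STAR 2.3.0e, featureCounts of Subread, DESeq2 and FastQC, per the submitters' processing notes. The gene annotation, strand setting and filters are not given in the sources used here. Since human gene models were applied to macaque reads, those that differ from them, or that match near-identical or overlapping genes, may be lost or divided. Names were looked up in RefSeq's macaque gene table, where 10 of 10 members were found; no genome was used.

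Depth came from whole reads, which the spacing of FPKM values gave in 42804 of 42804 genes above 0, within 0.0001 of a whole number. The main test was limma 3.58.1 (R 4.3.3) with a mean-variance trend on log2(FPKM + 0.5), which understates changes of low genes, for genes with at least 1 FPKM in at least 3 fitted libraries. Each tissue was fitted with its 4 times, the tissue and profile tests with 24 libraries, and each pool comparison with 14. Adjustment was Benjamini-Hochberg over all genes, all tests were two-sided, and calls had an adjusted p under 0.05. Intervals of differences are 95% and unadjusted. Python 3.11.15, numpy 2.4.6, pandas 2.3.3, scipy 1.17.1 and matplotlib 3.10.9 were used. The test was also run on simulated reads with planted changes. Those reads gave every gene the same dispersion, so the run cannot check the test at the spread between these animals. In all 24 pairs of replicate libraries the recovered reads differed beyond sampling noise (chi-square per gene 8.50 to 40.5). The p-values measure the spread between libraries, and within a tissue these came from different animals per the labels. The labels give 12 animals for both tissues, so the fits of 24 libraries may hold libraries of the same animal, which the model did not account for. At mid-day XIST was above EIF1AY in every pineal library but not in every retina library. At dusk it was above in every retina library but not in pineal replicate 3, and at dawn in pineal replicate 2 but in no retina library. If each library came from its own animal, the 2 tissues did not share the same 3 animals at these times. Which libraries share an animal could not be worked out.

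The members and lists were chosen with earlier results of these data known. All 10 members were named. From each list every called gene, at most the 6 with the largest difference, or otherwise the 2 with the smallest p could be named, and in each tissue the 5 genes most like FKBP5; some genes under this rule are not reported here. Alternatives were other pseudocounts (0.1 and 1), no filter, centring on the library median, voom on the recovered reads, a sex indicator, a replicate block, and leaving out each library.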

Additional observations from a re-analysis of the deposited data

Results flagged for a closer look

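The receptor gene NR3C1 stood out because its libraries moved in opposite directions in the 2 tissues from dawn to mid-day. In the pineal gland all 3 mid-day libraries were above the 3 dawn libraries, with a log2 difference of 0.21. In the retina all 3 mid-day libraries were below the 3 dawn libraries, with a log2 difference of -0.26. Neither difference passed limma (adjusted p = 0.548 and 0.613), and the difference between the tissues for this pair of times was not tested. The test of the whole 4-time profile gave a limma adjusted p of 0.607. Without the 2 retina libraries that stood apart, the retina difference was -0.16 (limma adjusted p = 0.721). Both comparisons were partly confounded with sex. XIST was above EIF1AY in every pineal mid-day library but in replicate 2 alone at pineal dawn. In the retina it was above in mid-day replicate 1 but in no dawn library. Pineal NR3C1 was at 17.8 to 25.6 FPKM in libraries with XIST above EIF1AY and 15.3 to 17.3 in the others. Over the alternatives the pineal difference ranged from 0.0098 to 0.27.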

How the results depend on the processing

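Of 182 member differences, 85 changed sign under at least 1 alternative, in 232 of 3707 values; none of these had been called or was called with the other sign, and the smallest limma adjusted p among them was 0.456. Of the differences printed above, these changed sign. CDKN1A in retina minus pools (0.02) was -0.044 with median centring, -0.039 with voom, -0.036 with the block and -0.091 to 0.131 leaving out each library. For dawn minus the other pineal times, MT2A (-0.01) was 0.051 with median centring, 0.045 with voom, 0.068 with the sex indicator and -0.102 to 0.093 leaving out libraries, KLF9 was -0.031 to 0.085 and ZBTB16 -0.051 to 0.307 leaving out libraries. For dawn in the retina, SGK1 (-0.0058) was 0.055 with median centring, 0.030 with voom, 0.287 with the sex indicator and -0.193 to 0.136 leaving out libraries. NR3C1 there was -0.031 and ZBTB16 0.207 with the sex indicator, ZBTB16 was 0.013 without both libraries that stood apart, and FKBP5 was -0.00089 to 0.169 leaving out libraries. SGK1 in retina dusk minus dawn was 0.133 without both libraries and -0.234 to 0.263 leaving out each.

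The counts of members called kept within 1.5 times of the reported count except in these cases. The pineal F test over times called 1 member (SGK1) without pineal mid-day replicate 3. The pineal pairs of times gave 2 calls (both SGK1) without that library, and also 2 (both SGK1) with the replicate number as a block. The pineal comparison with the control pools gave 5 without control pool replicate 1 and 5 without replicate 2. The retina gave 1 correlated pair by Spearman's rho. Leaving out each library in turn gave 0 to 1 for the pineal F test, 0 to 2 for the pineal pairs, 5 to 9 for the pineal gland and 7 to 9 for the retina against the pools, 9 to 10 for pineal gland against retina, and 0 for the other counts of time comparisons and the profile test.

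Whether replicate numbers pair the libraries was not settled. Same-numbered libraries of a tissue deviated from their group means with r from -0.73 to 0.67, over 0.1 in 7 of 36 pairs. Both extremes were between dawn and mid-day libraries of the retina, and the pineal values ran from -0.15 to 0.16. Of the pineal libraries 10 of 12 deviated most like others with their own number, against 3 of 12 in the retina. With the replicate number as a block the pineal pairs gave 2 calls, both SGK1 (adjusted p = 0.0294 for dusk minus dawn and 0.0473 for midnight minus dusk).

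Counts over all genes moved more. With voom the dawn contrast of the pineal gland called 55 genes in place of 2, mid-day minus dawn 3 in place of 6, dusk minus mid-day 1 in place of 4, midnight minus dusk 1 in place of 11, midnight minus mid-day 5 in place of 8 and the profile test 8 in place of 54. In the pineal gland the block gave 204 in place of 112 for dusk minus dawn, 21 in place of 6 for mid-day minus dawn, 34 in place of 11 for midnight minus dusk, 34 in place of 2 for dawn against the other times and 43 in place of 20 for the pineal F test, the profile test gave 28 with the block, and the retina F test gave 2 with the block and 4 with voom in place of 0.

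With 3 libraries per time, small differences could not be told from the spread between animals. ANGPTL4 and MT2A in the retina rest on few reads. The pools have no replicates per time, and animals differed in age, sex and year of collection.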
